A study of Homo sapiens with 4 samples.

Results

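The plasminogen system and invasion genes studied here are PLAU, PLAUR, PLAT, SERPINE2, THBS1, MMP1, MMP14, TIMP1 and TIMP2. All 9 were chosen by gene symbol from the 13957 genes of the deposited table, so their presence in it is not a result. RNA was sequenced from MDA-MB-231 Fluc cells, an established line from a triple-negative breast tumour that carries an inserted luciferase gene. The groups were 2 samples exposed to 50 μM cordycepin and 2 exposed to the vehicle DMSO, all for 2 h. Total RNA was depleted of ribosomal RNA and sequenced, with strand kept, as paired reads of 75 bases. The labels do not say whether the duplicates came from separate cultures. The values analysed are the authors' mean level of each gene over the libraries of both groups. They therefore describe how much of each transcript these cells held across both treatments, and the question of what cordycepin did to the transcripts is not analysed here. For the same reason no value has an SD or n per group, and the depth of each library is unknown.

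In the plasminogen system, serine proteases called plasminogen activators cut plasminogen to plasmin, a broad protease that degrades fibrin and matrix proteins. The urokinase form works at the cell surface on its own receptor, and inhibitors of the serpin family stop both activators. Matrix metalloproteinases are zinc enzymes that cut collagens and other matrix proteins, and TIMP proteins bind and block them. Cells of invasive tumours use both systems to cross tissue. Cordycepin is 3′-deoxyadenosine, an adenosine analogue whose triphosphate can end the growth of a poly(A) tail, so the 3′ ends of the transcripts are shown first.

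The poly(A) signal AATAAA directs cleavage and polyadenylation shortly downstream of it. It was searched for on the transcript strand in the last 50 bases of the canonical transcript of GENCODE, and was found in 6 of the 9 genes. Of 11593 coding genes of the table with a 3′ UTR, 67.0% held it in the same window. For those 6 genes a 30-base site is printed 5′ to 3′ on the transcript strand, with the hexamer in capitals. The sites lie at chr10:73917462-73917491 for PLAU (plus strand), chr2:223975066-223975095 for SERPINE2 (minus), chr11:102789931-102789960 for MMP1 (minus), chr14:22847729-22847758 for MMP14 (plus), chrX:47586756-47586785 for TIMP1 (plus) and chr17:78852983-78853012 for TIMP2 (minus), all in hg38 and all in the 3′ UTR of the last exon.
PLAU: ataaaagtgatcAATAAAatgtgatttttc
SERPINE2: tcagcctcttctAATAAAcctttgtactat
MMP1: ttttatgtttggAATAAAgtcaaccttgtt
MMP14: ctttccacaaagAATAAAttgtgtttcaca
TIMP1: tccggacaatgaAATAAAgagttaccaccc
TIMP2: cggtccgtggacAATAAAcagtattatcaa

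The distance from the hexamer to the annotated transcript end was shortest for MMP14, at 12 bases, and longest for SERPINE2, at 33 bases. The median over coding genes with AATAAA or the variant ATTAAA was 17 bases. Neither hexamer was in this window for PLAUR, PLAT and THBS1, which says only that these letters do not occur there in the chosen transcript. Of the coding genes, 67.0% held AATAAA in it and a further 15.3% held ATTAAA only.

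The 3′ UTRs were then searched for TTATTTATT, a nonamer typical of AU-rich elements, the sequences through which many short-lived transcripts are bound by decay factors. It was found in PLAUR and THBS1, once in each, whereas 9.83% of the 11593 coding genes held it. The PLAUR site lies at chr19:43648600-43648629 on the minus strand and the THBS1 site at chr15:39596502-39596531 on the plus strand of hg38, both in the 3′ UTR, and the nonamer is in capitals.
PLAUR: aatattcataTTATTTATTttatacttaca
THBS1: taaatacagaTTATTTATTaactctgttct

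The shorter motif ATTTA, which lies within the nonamer, occurred in the 3′ UTRs of 7 of the 9 genes and in 73.8% of coding genes. MMP1 was the densest, with 3 copies or 6.05 per kilobase of 3′ UTR, compared with a median of 1.73 over coding genes. THBS1 had 8 copies in its long 3′ UTR, which is 1.95 per kilobase. MMP14 and TIMP1 had none. The 3′ UTR of MMP14 was also the richest in G and C of the 9, at 59.3%, and that of SERPINE2 the poorest, at 34.2%, with a median of 42.0% over coding genes.

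The lengths of the 3′ UTRs differed between the genes. TIMP1 had 101 bases, a length reached or undercut by 3.34% of coding genes, and THBS1 had 4100 bases, at the 86.6th percentile. PLAUR had 314 bases and MMP1 496, both below the median of 1372 bases. TIMP2, whose product is related to that of TIMP1, had 2693 bases. The drawing of transcript parts shows how much of each transcript is coding sequence.

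**Figure D1:**
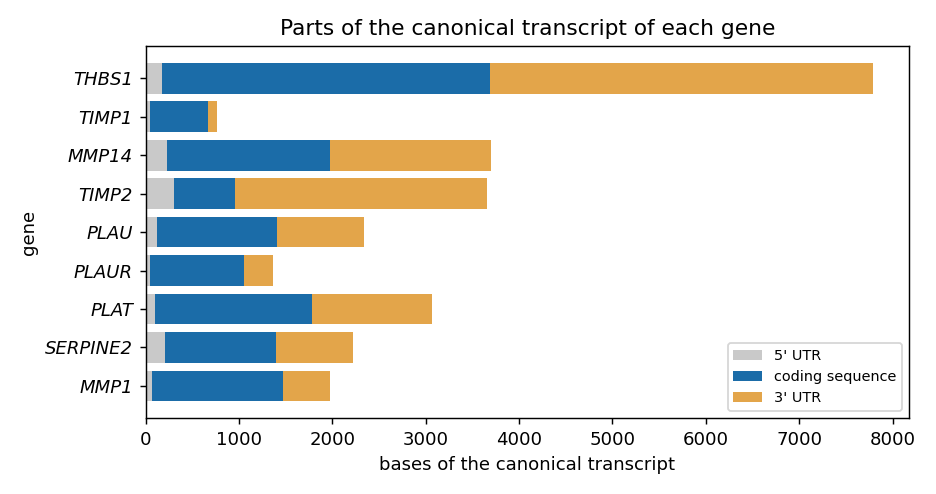
Bases of 5′ UTR (grey), coding sequence (blue) and 3′ UTR (orange) in the canonical transcript of each gene, in order of mean level from the top. THBS1 has 4100 bases of 3′ UTR and TIMP1 has 101.

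Levels were compared per length. The mean log2 CPM (counts scaled to a total of 1000000) of a gene was reduced by the log2 of its canonical transcript length in kilobases, which gives a log2 level per kilobase. Over the 13922 genes found in GENCODE the median of this level was 3.04, and the lower and upper quartiles were 1.53 and 4.56. The 9 invasion genes had a median level of 6.49, which is at the 93.4th percentile. Of them, 8 were above the median of all genes and 5 were above the 90th percentile. From highest to lowest the order was THBS1, TIMP1, MMP14, TIMP2, PLAU, PLAUR, PLAT, SERPINE2 and MMP1. The first and the last were 7.86 apart on the log2 scale, a ratio of 232. Neighbours in this order could not be compared with a spread between libraries.

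**Figure D2:**
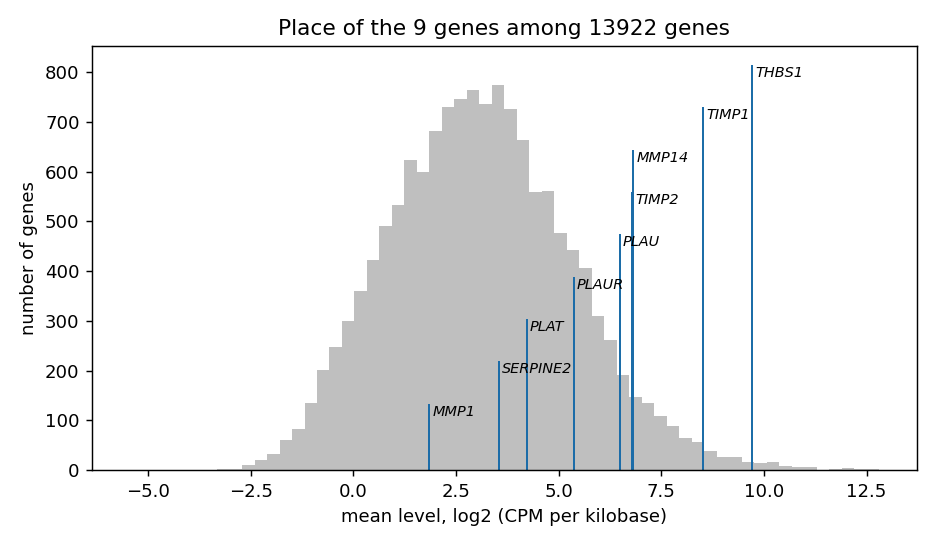
Number of genes (y axis) by mean level in log2 CPM per kilobase (x axis) for 13922 genes, with a blue line at each of the 9 genes; the height of a line has no meaning. MMP1, at 1.85, lies left of the median of all genes (3.04), and THBS1, at 9.71, lies in the right tail.

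PLAU encodes urokinase, the plasminogen activator of cell migration. It had a mean log2 CPM of 7.72 and a level of 6.49 per kilobase, at the 93.4th percentile. The gene lies on chromosome 10, from 73909177 to 73917496 on the plus strand, and its transcript has 11 exons. PLAT encodes the tissue-type activator, best known for dissolving clots. It lies on chromosome 8, from 42174718 to 42207676 on the minus strand, and had a mean log2 CPM of 5.84 and a level of 4.22 per kilobase (70.4th percentile). Urokinase was thus the more abundant activator transcript, with a level per kilobase 4.82 times that of PLAT, and 9.73 times with the length of all exons.

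PLAUR encodes the urokinase receptor, which is held in the membrane by a lipid anchor. The gene is on chromosome 19, from 43646095 to 43670547 on the minus strand. Its mean log2 CPM was 5.82 and its level per kilobase 5.36, at the 84.6th percentile. The ligand transcript exceeded the receptor transcript 2.18 times per kilobase. This ratio depends on the transcript model, because GENCODE gives PLAUR 16 transcripts whose exons together cover 3.26 times the canonical length. With the length of all exons, PLAU exceeded PLAUR 5.65 times and PLAUR was at the 72.5th percentile.

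SERPINE2 encodes protease nexin-1, a serpin that inhibits thrombin and both activators. On chromosome 2, from 223975045 to 224039318 on the minus strand, it was the second lowest of the 9, with a mean log2 CPM of 4.70 and a level of 3.55 per kilobase (59.1st percentile). Its exons together cover 4.02 times the canonical transcript, the largest such ratio of the 9, and with the length of all exons its level fell to 1.54 and its percentile to 34.8. With that measure SERPINE2 was therefore below the median of all genes. SERPINB2, which encodes a further inhibitor of urokinase, had a level of 0.42 per kilobase and lay at the 11.4th percentile. SERPINB2 was named after its value was seen.

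A list of 20 other plasminogen system genes placed these values among receptors and inhibitors, and 14 of them were in the table. Their median level was 3.70 per kilobase, with a median percentile of 61.7, and 8 were above the median of all genes. The highest were ENO1 (10.6), S100A10 (8.99) and ANXA2 (8.83), which encode an enzyme of glycolysis that also binds plasminogen and the partners of a heterotetramer that does so at the cell surface. The lowest was ST14, the membrane protease matriptase, at 0.06. PLG, the gene of plasminogen itself, which is made mainly by the liver, was looked up by symbol. It was not among the 13922 genes, so it has no level here.

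THBS1 encodes thrombospondin-1, a secreted matrix protein that binds many cell surface receptors and can activate latent TGF-β. It was the highest of the 9 by a wide margin, with a mean log2 CPM of 12.67, which ranked number 3 among 13922 genes before scaling by length. This corresponds to 6510 CPM. The 9 genes together held 0.793% of the summed mean CPM of the table, and THBS1 alone held 81.7% of that part. Its level per kilobase was 9.71 (99.5th percentile), 2.29 times that of TIMP1, and 3.66 times with either other length measure. The gene lies on chromosome 15, from 39581079 to 39599466 on the plus strand, and its canonical transcript of 7789 bases in 22 exons was the longest of the 9.

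Among 12 other thrombospondins and thrombospondin receptors, 8 were in the table, with a median level of 5.12 per kilobase. THBS3, the only other thrombospondin among those 8, had 0.04, so THBS1 exceeded it 814 times, and 1018 times with either other length measure. These ratios rest on a low value, as THBS3 had a mean log2 CPM of 1.69 and the lowest of all genes was 0.56. The highest receptor transcripts were CALR (9.33), ITGA3 (8.22) and ITGB1 (8.08), which encode calreticulin and subunits of an integrin that binds laminin. Of these 8 genes, 6 were above the median of all genes, and THBS3 was among those below it. CD47, a receptor for the carboxy-terminal part of thrombospondin-1, had 3.98 and was above that median, at the 66.6th percentile.

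MMP14 encodes a metalloproteinase anchored in the plasma membrane, which cuts collagen around the cell and, with TIMP2, activates the secreted enzyme MMP2. Its mean log2 CPM was 8.71 and its level per kilobase 6.82, at the 94.8th percentile. It lies on chromosome 14, from 22836560 to 22849027 on the plus strand. MMP1 encodes the interstitial collagenase, which is secreted and cuts fibrillar collagens. It lies on chromosome 11, from 102789919 to 102798160 on the minus strand. MMP1 had a mean log2 CPM of 2.83, or 7.10 CPM, and a level of 1.85 per kilobase at the 29.6th percentile. It was the only one of the 9 below the median of all genes with the canonical length. The membrane enzyme exceeded the secreted collagenase 31.3 times per kilobase, and 26.0 to 34.8 times with the other length measures.

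Of 21 other metalloproteinase genes of this family, 5 were in the table, all below the median of all genes. Their highest levels were those of MMP15 (1.22), MMP24 (0.82) and MMP16 (0.05), all membrane-type enzymes, and the lowest was that of MMP17 (-0.07). Of the 7 metalloproteinase genes in the table with both members included, MMP14 was thus the only one above the median. MMP1 was second per kilobase, but not without scaling by length. Its mean log2 CPM of 2.83 was below those of MMP16 (3.58), MMP15 (3.24) and MMP24 (2.95). MMP2, which MMP14 activates, was looked up by symbol and was not among the 13922 genes, so it has no level here.

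TIMP1 and TIMP2 encode inhibitors that bind metalloproteinases in equal numbers of molecules. TIMP1 had a mean log2 CPM of 8.13 and, with a canonical transcript of only 769 bases, a level of 8.51 per kilobase (98.7th percentile). It lies on chromosome X, from 47582408 to 47586789 on the plus strand. TIMP2 had a mean log2 CPM of 8.66, higher than that of TIMP1, but a lower level per kilobase of 6.79 (94.7th percentile). It lies on chromosome 17, from 78852977 to 78925387 on the minus strand, and at 72.4 kb was the longest of the 9 genes. Per kilobase of canonical transcript TIMP1 exceeded TIMP2 3.31 times and MMP14 3.24 times. With the length of all exons these ratios were 2.99 and 2.15, and with the deposited gene length they were 2.71 and 2.07. They compare transcripts only, and inhibition of MMP14 by TIMP1 was not tested.

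The transcripts of MMP14 and TIMP2, partners at the cell surface, were close in level. They differed by 0.03 on the log2 scale per kilobase, a ratio of 1.02, and by 0.48 with the length of all exons. Of the other inhibitor genes, TIMP3, whose product binds to the matrix, had a level of 5.71 (percentile 88.1), so TIMP2 exceeded it 2.12 times, but 1.24 times with the length of all exons. RECK, a membrane-anchored inhibitor, had 1.67 and TIMP4 had 0.54. These were the 3 of 6 listed inhibitors in the table.

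**Figure D3:**
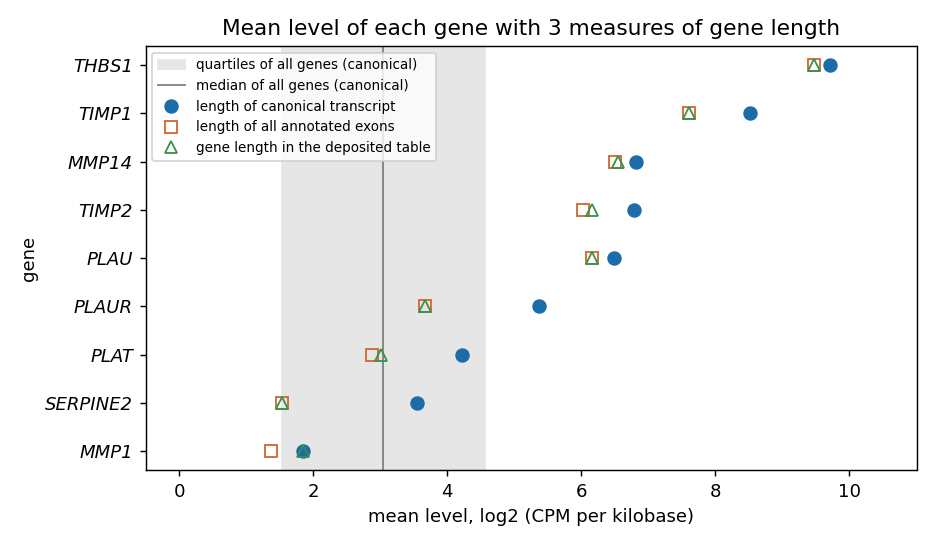
Mean level of each gene in log2 CPM per kilobase (x axis) with 3 measures of length: the canonical transcript (filled circles), all annotated exons (squares) and the gene length in the deposited table (triangles). The shaded band and the line are the range between the quartiles and the median of all genes with the canonical length; PLAUR, PLAT and SERPINE2 move most to the left, SERPINE2 from 3.55 to 1.54.

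The order of the 9 genes by level was largely shared by the length measures. With the length of all exons, 35 of 36 pairs of genes kept their order, and TIMP2 then had 0.909 times the level of PLAU. The gene length in the table also kept 35 of 36 pairs, and there SERPINE2 had 0.808 times the level of MMP1. With each of the 3 measures, the same count of 5 genes was above the 90th percentile.

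**Figure D4:**
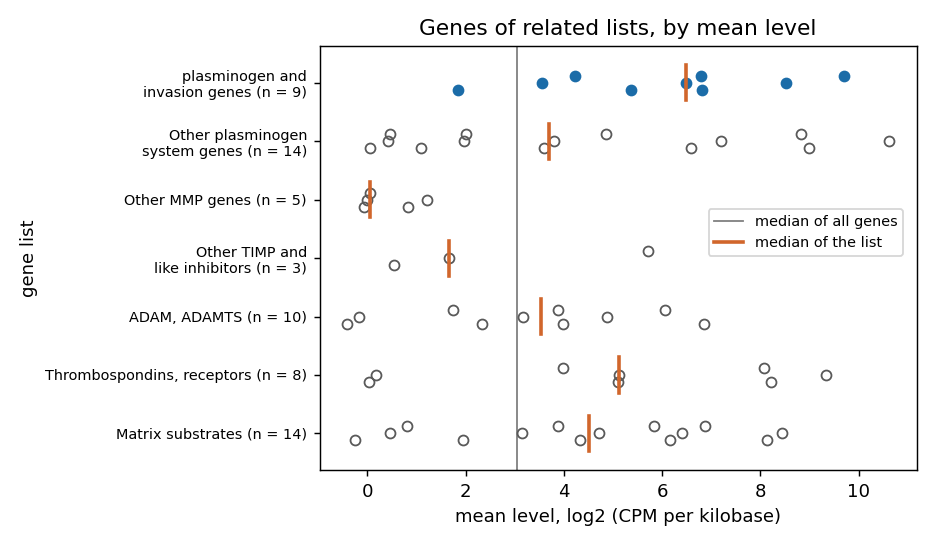
Mean level in log2 CPM per kilobase (x axis) of the 9 genes (filled) and of related gene lists (open), each point 1 gene, with the median of each list in orange and the median of all genes as a grey line; vertical offsets only separate points. The other metalloproteinase genes all lie left of the grey line, and the 9 genes have a median of 6.49.

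Markers of the cell line were read on the same scale. All 7 mesenchymal and basal markers were above the median of all genes, with a median level of 8.77, and included VIM at 9.34, CD44 at 8.13 and EGFR at 5.34. Of the receptors by which triple-negative tumours are defined, ERBB2 had 4.31 (71.6th percentile). ESR1 and PGR were looked up by symbol and were not among the 13922 genes, so neither has a level here. Of 5 epithelial markers, 4 were above the median of all genes, with a median level of 7.62. The keratin genes KRT8, KRT19 and KRT18 had 8.28, 7.86 and 7.62, EPCAM had 3.05, and CDH1, the gene of E-cadherin, had 1.41. Of 5 markers of other cells, COL1A1 and ACTA2 were in the table, at 0.80 and 0.79. Over all genes of the table, mean log2 CPM lay between 0.56 and 13.43, and its median was 4.58.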

How the data were processed

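Libraries of ribosome-depleted RNA from 2 cordycepin and 2 DMSO samples were grouped by the treatment in the labels. According to the methods, the authors used GRCh38.p13 for mapping and rsubread for counting; the submitters' processing notes name hg38, TopHat, HTSeq, DESeq and Cufflinks without their roles. The filter on low counts and the normalization are not given in the sources used here. The deposited table gives 1 mean expression value for each gene over the libraries, as log2 CPM by the authors, and a gene length. Raised from the log2 scale, these means sum to 1005541. Its columns of the authors' own comparison of cordycepin with DMSO (log2 fold change, F statistic, p-value and adjusted p-value) were not used, and it holds 0 columns of values per sample. No test was therefore made, and the table gives no depth.

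Of the 13957 genes, 13922 (99.7%) were matched by gene ID to GENCODE release 44, on the same build; 35 were left out. The level per kilobase is the mean log2 CPM less the log2 of the canonical transcript length in units of 1000 bases. A percentile is the share of the matched genes at or below a gene. The gene length of the table equalled the bases of all annotated exons for 73.7% of genes and for 5 of the 9 genes described; start and end were equal in both sources for 6 of these 9, and printed gene coordinates are those of the table. 3′ UTR sequences came from GENCODE transcripts, and promoter windows of 300 bases from RefSeq (GRCh38.p14). The genes and lists were chosen with earlier results of these data known. All 9 genes, the 3 highest and the lowest gene of each list, and cell line markers were named by rule. CD47, COL4A1, COL4A2 and SERPINB2 were named outside this rule, after the values were seen. MMP2 and PLG were also named outside this rule, and they were absent and have no value. The result for 1 gene of the other plasminogen system genes is not reported here, and it was left out of that list. The arithmetic of levels and percentiles was checked on simulated data built with the same transcript lengths. The choice of length was not tested by it. Alternatives were another length measure, protein coding genes only, a filter on low means and no scaling by length. Python 3.11.15, numpy 2.4.6, pandas 2.3.3 and matplotlib 3.10.9 were used.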

Additional observations from a re-analysis of the deposited data

How the results depend on the processing

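The median level of the 9 genes was 6.49 per kilobase with canonical lengths and 6.02 with all annotated exons. Their median percentile was 93.4 among all genes, 93.7 among the 11603 protein coding genes, 92.1 among the 10441 genes above the lower quartile of the mean log2 CPM and 93.5 without scaling by length. MMP1 was itself below that quartile, so the value there rests on 8 genes. The order of the genes kept 35 of 36 pairs with either other length. Of 26 percentiles of single genes with protein coding genes only, with the filter on low means or without scaling by length, 16 were lower and 10 higher, with changes between -13.4 and 2.74 percentile points. The other lengths moved some further, SERPINE2 from percentile 59.1 to 34.8 with all exons and 34.3 with the gene length of the table, and MMP1 from 29.6 to 32.0 and 39.5. No spread between libraries is known, so none of these shifts could be set against replicate error. No paired analysis was possible because the table gives no values per replicate, and for the same reason no library could be left out. Fits to counts, planned in case the table held them, were not run. A mean over both groups cannot tell a gene with a steady level from one that differed between them.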

Other observations

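The targets of these enzymes and a related protease family were also read. Of 16 matrix genes, 14 were in the table, with a median level of 4.51 per kilobase, and 10 were above the median of all genes. The highest were FN1 (8.45), which encodes fibronectin, the hyaluronan receptor gene CD44 (8.13) and CCN2 (6.88), which encodes a matricellular growth factor modulator. The lowest was COL1A2, a chain of fibrillar collagen, at -0.26. COL1A1, the other chain of type I collagen, had 0.80, whereas the basement membrane collagen genes COL4A2 and COL4A1 had 6.41 and 4.71. COL4A1 and COL4A2 were named after their values were seen.

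Among 13 ADAM and ADAMTS genes, which encode membrane and secreted metalloproteinases, 10 were in the table, with a median level of 3.53 per kilobase, and 6 were above the median of all genes. ADAM9 (6.85), ADAM15 (6.06) and ADAM10 (4.87) were the highest and ADAM12 (-0.42) the lowest. ADAM9 was thus near MMP14, at 6.82.

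Promoter windows from RefSeq, from 250 bases before to 50 after a gene's start, were found for 6 of the 9 genes, namely PLAU, PLAUR, SERPINE2, THBS1, MMP14 and TIMP1, with 8 windows in all. The AP-1 motif TGANTCA, which reads the same on both strands, occurred in 1 of them, that of PLAUR, against 7.71% of all 35116 RefSeq windows. Those windows were not limited to genes of the deposited table. It begins 186 bases before the start that RefSeq gives for this window, which lies inside the longer span of PLAUR in the deposited table, in the site chr19:43670337-43670366 on the minus strand of GRCh38.p14, with the motif in capitals.
PLAUR: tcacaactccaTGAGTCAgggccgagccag

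The TATA motif TATAAA, searched on both strands, was in 0 of the 8 windows and in 11.5% of all windows. The members' windows had a median of 64.5% G and C, against 58.7% over all windows.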
